A study of Homo sapiens with 6 samples.

Results

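SiHa is an established line of human cervical squamous carcinoma cells, and the genes described here are 46 that code for its extracellular matrix, for the integrins that hold cells to that matrix, and for the enzymes that cut, protect or crosslink it. They were chosen by symbol among the 48162 genes of the deposited table: 9 collagen chains, 9 laminin chains and other basement membrane proteins, 6 fibronectin, fibrillin and matricellular genes, 6 integrin alpha subunits, 6 integrin beta subunits, and 10 proteases, inhibitors and crosslinking enzymes. Every one of the 46 matched 1 Ensembl identifier. In the treated group the cells received si-CNN3, an siRNA (small interfering RNA) whose target CNN3 codes for the actin-binding protein calponin 3. The control group received si-NC, an siRNA without that target. Each group held 3 samples, and RNA was harvested at 48 h. The medium was renewed at 24 h according to the sample labels, while the study's methods give an earlier time for siRNA. All samples shared the same cell line and 1 siRNA stood for each condition, so a difference belongs to that pair of siRNAs in that line. The sample labels do not say what separates the replicates and the study's methods speak of independent assays, so the p-values measure the spread between these 3 samples of each group.

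The matrix is a mesh of secreted proteins. Collagens are rods of 3 chains wound together, laminins are cross-shaped trimers of an alpha, a beta and a gamma chain that form the base of the sheet under an epithelium, and agrin, perlecan and nidogen tie that sheet together. Integrins cross the cell membrane as pairs of an alpha and a beta subunit, and the pairing decides which matrix protein the cell holds. Metalloproteases (MMPs) cut the mesh, TIMPs block them, the urokinase receptor gathers protease activity at the cell surface, and lysyl oxidases crosslink collagen.

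Counts on genes summed to between 18147028 and 19026341 in the si-CNN3 samples and to between 20287139 and 24976517 in the si-NC samples. CNN3 itself was at 26.0, 26.8 and 31.4 normalized CPM (counts of the gene per 1000000 counts, after TMM scaling of the library totals) with si-CNN3 and at 56.5, 51.7 and 57.2 with si-NC. No si-CNN3 sample reached the si-NC range, and CNN3 fell to 50.9% of control (log2 fold change -0.97 ± 0.06 SE, edgeR adjusted p = 2.04e-20). Markers of an epithelial line were in place, with a summed level from 1216 to 1251 CPM with si-CNN3 and from 1278 to 1332 CPM with si-NC over 8 genes. Of the 7 tested, KRT8 and KRT18 were called lower with si-CNN3 (log2 fold changes -0.19 and -0.18), TP63 was called higher (0.68) and 4 were not called. Fibroblast markers summed to between 7.60 and 9.59 CPM against 6.87 to 8.21 CPM over 7 genes, and endothelial markers stayed below 0.9 CPM in every sample. Leukocyte markers summed to 120.3 to 128.1 CPM against 144.9 to 156.0 CPM, nearly all of it from CD14 (log2 fold change -0.30). The part of these shifts in the results that follow was not tested.

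The siRNA sequences, of which si-CNN3#1 is the one used in the si-CNN3 group, are given because several members carry a match to the guide. A guide strand can lower a transcript through pairing of its seed, bases 2 to 8 from the 5′ end, with the 3′ UTR. Below are the 19-base cores of both guides, derived as the reverse complement of the sense strands in the sample labels, with the seed in capitals.
si-CNN3#1 guide: uUUGUUGGuucccaucugc
si-NC guide: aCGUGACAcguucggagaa
The si-CNN3#1 core matched bases 882 to 900 of the CNN3 transcript CNN3-201 in GENCODE release 29 (GRCh38), ahead of the 3′ UTR, which starts at base 1375. No member transcript held 12 consecutive matching bases to either siRNA.

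The 7-base site for the si-CNN3#1 seed, CCAACAA, was present in the 3′ UTR of 6 of the 39 members tested for a difference, against 8.78% of the 12606 tested genes with a 3′ UTR in GENCODE. They were FBN1, ITGA1, ITGA2, ITGA5, TIMP3 and LOXL2. The si-NC site, TGTCACG, was in 0 of the 39 members, against 3.04% of the tested genes. The sites of the 2 members that were called lower are shown because they are also the ones with the largest decreases. They are printed in the sense of the transcript with the 7 bases in capitals, from FBN1-201 (gene at chr15:48408306-48645849, minus strand) at base 2234 of its 3′ UTR and from ITGA1-201 (gene at chr5:52787896-52959210, plus strand) at bases 3945 and 4263.
FBN1: ttcctgagCCAACAAttttgaac
ITGA1, upstream site: catttcttCCAACAAccctcagg
ITGA1, downstream site: aaatgcacCCAACAAtcgccaac
The log2 fold changes of the other members with a site were -0.10 for ITGA2, 0.09 for ITGA5, -0.0037 for TIMP3 and 0.043 for LOXL2, and none of them was called. The median log2 fold change was -0.054 over the 6 members with a site and 0.0067 over the others. The 3′ UTRs of these 6 members ran from 854 bases (LOXL2) to 6759 bases (ITGA1), and the share over all tested genes was not matched for length. The FBN1 call was lost when any 1 sample was left out, as given below. A site was counted by its letters alone, and its part in any difference was not tested.

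Of the 46 members, 39 had enough counts for the test and 7 did not. Over the whole series 15860 genes were tested, and 13.3% of them were called, that is, had an edgeR adjusted p of 0.05 or less. Of the 39 members 16 were called. Among these, 8 were higher with si-CNN3, against 6.17% of all tested genes, and 8 were lower, against 7.14%. The groups did not overlap in normalized CPM for 16 members, against 28.2% of all tested genes. Members were deeply counted, with a median mean count of 2674 against 429 over all tested genes, and deeper genes were called more often: in the band of 1000 to 10000 counts 24.2% of all genes were called, beside 9 of 24 members, and in the band of 100 to 1000 counts 11.7%, beside 4 of 8 members. The median log2 fold change of the members was 0.0064 and that of all tested genes 0.0023, with a range over the members from -0.60 to 0.65. RNA was measured over all cells of a sample, so fewer cells making a transcript and less of it in each cell cannot be told apart.

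Of the called members, 6 changed in the same direction and stayed called in all 18 alternative analyses: TNC, COL12A1, THBS1, ITGB8 and MMP2, which rose, and PLAUR, which fell. Another 5 (COL6A1, LAMB3, LAMB2, AGRN and ITGA1) lost the call only when FPKM values of all genes with any count were tested with limma. The calls of TIMP2, ITGA3, LOX, ITGB3 and FBN1 depended on more settings, given beside each gene.

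**Figure D1:**
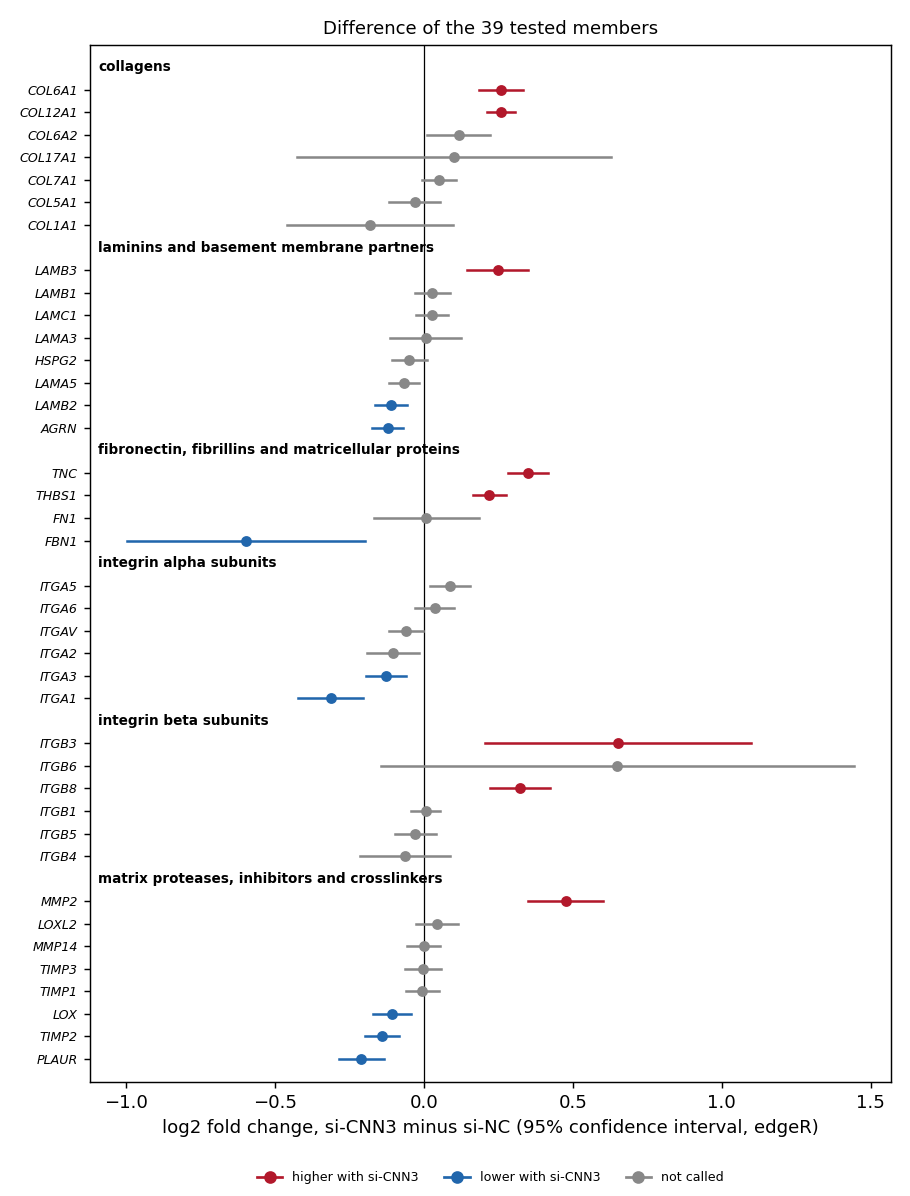
Each point is the log2 fold change of 1 tested member, si-CNN3 minus si-NC, with its 95% confidence interval from edgeR's quasi-likelihood fit to 3 samples in each group, and members are grouped by role. The 8 members called higher lie between 0.22 and 0.65 and the 8 called lower between -0.60 and -0.11, while ITGB6, at 0.65 with an interval from -0.15 to 1.44, was not called.

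A pair of scales describes how much of each gene was present. FPKM values (fragments per kilobase of gene length, scaled to the total count of the library) as deposited use the authors' own gene lengths, which were a median of 2.82 times shorter than the longest protein-coding transcript in GENCODE release 29 over the 39 tested members, from 1.00 times for TIMP3 to 8.11 times for HSPG2. Levels between genes were therefore also computed with the longest transcript as the length. Over the 39 members the order on these scales had a Spearman rho of 0.899, given as a description because both scales use the same counts. ITGB1 and TIMP1 held the top ranks on both scales in si-NC cells, at 549 ± 4.08 and 499 ± 19.97 FPKM (SD, n = 3) by the authors' length and at 174 and 377 FPKM by the longest transcript. LAMA5 moved from rank 3 to rank 10 and HSPG2 from rank 9 to rank 23, so their place among the others depends on the length used.

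**Figure D2:**
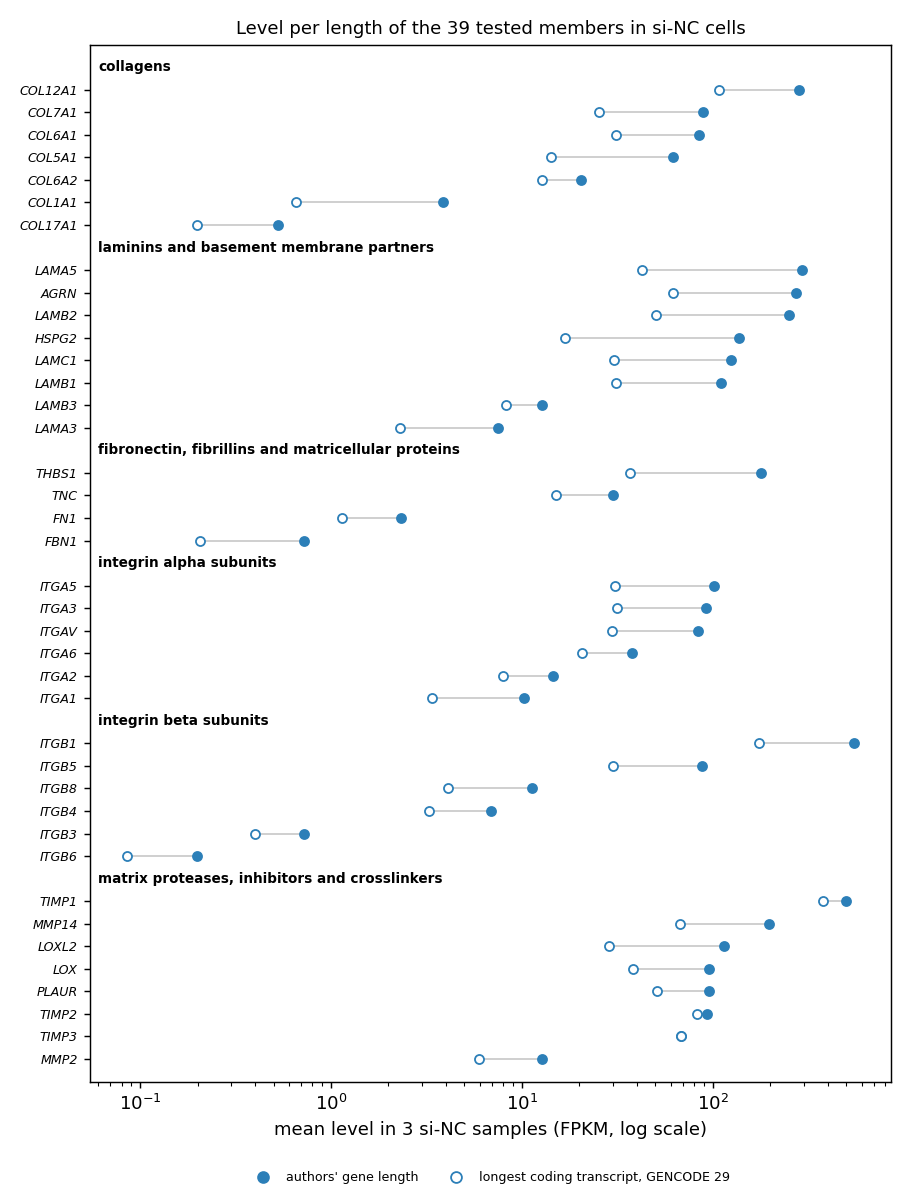
Mean level of the 39 tested members in the 3 si-NC samples, in FPKM on a log axis, with the authors' gene length (filled circles) and with the longest coding transcript of GENCODE release 29 (open circles). ITGB1 and TIMP1 lie furthest to the right, and ITGB6, COL17A1, FBN1 and ITGB3 lie below 1 FPKM on both scales.

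Of the 7 tested collagen chains 2 were called, both higher, and 5 were not. COL12A1, the chain of a collagen that lies on the surface of other fibrils, was the collagen with the highest level, at 282 ± 0.721 FPKM in si-NC cells (authors' length, SD, n = 3). Its normalized CPM was 1524, 1519 and 1513 with si-CNN3 and 1278, 1262 and 1271 with si-NC. All 3 si-CNN3 samples lay above all 3 si-NC samples by far more than the spread within either group. COL12A1 rose 1.20-fold (log2 fold change 0.26 ± 0.02 SE, edgeR adjusted p = 6.42e-13). COL6A1, a chain of the beaded microfilaments of type VI collagen, was at 168.6, 156.0 and 152.0 CPM with si-CNN3 and at 144.7, 125.4 and 129.0 CPM with si-NC. These groups did not overlap either, although si-NC sample 1 came close, and COL6A1 rose 1.20-fold (log2 fold change 0.26 ± 0.04 SE, edgeR adjusted p = 2.90e-07).

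COL6A2, which pairs with COL6A1 in the same trimer, had a log2 fold change of 0.12 with a 95% confidence interval from 0.01 to 0.22 and was not called (edgeR adjusted p = 0.145). Without si-CNN3 sample 2 or without si-NC sample 1 it passed, at 0.18 (adjusted p = 0.0304) and 0.17 (adjusted p = 0.0456). The ratio of COL6A1 to COL6A2 in FPKM by the longest transcript was 2.61, 2.90 and 2.63 with si-CNN3 and 2.49, 2.35 and 2.51 with si-NC, a small shift without overlap. COL7A1, the anchoring fibril collagen of epithelia, was the uncalled collagen with the highest FPKM, at 237.0, 247.9 and 252.9 CPM against 238.4, 239.5 and 234.4 CPM, and its interval ran from -0.0060 to 0.11 on the log2 scale. COL5A1, COL1A1 and COL17A1 had log2 fold changes of -0.03, -0.18 and 0.10, and none of the 3 was called. COL1A1, the main chain of skin and bone collagen, was at only 3.85 FPKM in si-NC cells.

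The type IV collagen genes COL4A1 and COL4A2, whose chains make up the common basement membrane network, were not tested. COL4A1 had 0 counts in every sample, and a count of 0 among the 123062108 counts of all samples allows a level of up to 0.0244 CPM (3 counts, for counting error only). COL4A2 had 7 counts in all, with at most 3 in a sample. They lie head to head on chromosome 13, and their 250-base RefSeq promoter windows share the 126 bases at chr13:110307158-110307283 (GRCh38.p14).

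Of the 8 tested genes of laminins and their basement membrane partners 1 rose, 2 fell and 5 were not called. LAMA5, LAMB1, LAMB2 and LAMC1, the chains of the widespread alpha5 laminins, were all abundant, from 110 to 291 FPKM by the authors' length and from 30.4 to 50.3 FPKM by the longest transcript. LAMB2 was at 267.4, 268.9 and 263.7 CPM with si-CNN3 and at 288.0, 288.4 and 286.8 CPM with si-NC. The change was small but the spread smaller still: LAMB2 fell to 0.927 of control (log2 fold change -0.11 ± 0.03 SE, edgeR adjusted p = 0.00228). The other beta chain, LAMB1, was at 181.8, 186.4 and 185.8 CPM against 177.8, 182.2 and 183.0 CPM, overlapping, with a log2 fold change of 0.03 and an interval from -0.03 to 0.09. The ratio of LAMB2 to LAMB1 in FPKM by the longest transcript was 1.495, 1.466 and 1.442 with si-CNN3 and 1.646, 1.608 and 1.592 with si-NC. That ratio was lower in every si-CNN3 sample than in any si-NC sample.

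LAMA5 was the uncalled gene of the group with the highest FPKM by the authors' length. It was at 467.7, 469.9 and 457.4 CPM with si-CNN3 and at 496.6, 479.1 and 484.8 CPM with si-NC, so the groups did not overlap. Its log2 fold change of -0.07 ± 0.03 SE did not pass (edgeR adjusted p = 0.0774), and it passed in 1 of 18 alternatives, with the replicate number as a block (adjusted p = 0.00749). LAMC1 had a log2 fold change of 0.03 and was not called.

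LAMB3, with LAMA3 a chain of the laminin under epithelial hemidesmosomes, was at 39.7, 43.0 and 44.2 CPM with si-CNN3 and at 36.5, 35.4 and 34.9 CPM with si-NC. Every si-CNN3 sample lay above every si-NC sample and LAMB3 rose 1.19-fold (log2 fold change 0.25 ± 0.05 SE, edgeR adjusted p = 2.94e-04). LAMA3 did not follow, at 25.6, 24.5 and 24.1 CPM against 24.3, 25.3 and 24.2 CPM, with a log2 fold change of 0.0064 and an interval from -0.11 to 0.13. By the longest transcript LAMA3 stood at 0.260, 0.230 and 0.220 of LAMB3 with si-CNN3 and at 0.269, 0.288 and 0.280 with si-NC.

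AGRN codes for agrin, a heparan sulfate proteoglycan of basement membranes. Its level was 425.2, 431.0 and 412.4 CPM with si-CNN3 and 460.3, 465.1 and 454.5 CPM with si-NC, without overlap, and it fell to 0.919 of control (log2 fold change -0.12 ± 0.03 SE, edgeR adjusted p = 4.26e-04). HSPG2, which codes for perlecan, had a log2 fold change of -0.05 and was not called. NID1, the nidogen that bridges laminin and type IV collagen, had between 4 and 12 counts in a sample and was not tested.

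Of the 4 tested genes of fibronectin, fibrillins and matricellular proteins 2 rose, 1 fell and 1 was not called. TNC, coding for tenascin-C, a matrix glycoprotein that modulates cell attachment, was at 150.8, 142.9 and 147.2 CPM with si-CNN3 and at 116.8, 109.4 and 120.2 CPM with si-NC. The groups lay far apart, and TNC rose 1.27-fold (log2 fold change 0.35 ± 0.03 SE, edgeR adjusted p = 4.46e-12). THBS1, coding for thrombospondin 1, a secreted glycoprotein that binds cells, proteases and latent TGF-beta, was at 337.5, 343.5 and 326.2 CPM with si-CNN3 and at 296.0, 288.8 and 280.6 CPM with si-NC. Again there was no overlap, and THBS1 rose 1.16-fold (log2 fold change 0.22 ± 0.03 SE, edgeR adjusted p = 1.06e-08).

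FN1, coding for fibronectin, the ligand of several of the integrins below, was scarce at 2.32 FPKM in si-NC cells by the authors' length. It was at 10.6, 10.00 and 10.5 CPM with si-CNN3 and at 10.1, 10.5 and 10.3 CPM with si-NC, overlapping, with a log2 fold change of 0.0083 and an interval from -0.17 to 0.18. FBN1, coding for fibrillin 1 of elastic microfibrils, was rarer still, at 1.64, 1.46 and 1.75 CPM against 2.39, 2.45 and 2.50 CPM. There was no overlap between groups and FBN1 fell to 0.661 of control, with a wide error (log2 fold change -0.60 ± 0.20 SE, edgeR adjusted p = 0.0352). Leaving out any 1 of the 6 samples ended this call: the log2 fold change was then -0.61, -0.53 and -0.66 without si-CNN3 samples 1, 2 and 3, and -0.61, -0.60 and -0.58 without si-NC samples 1, 2 and 3, with adjusted p from 0.0545 to 0.130. The call was also lost when counts were thinned to the smallest total (-0.61, adjusted p = 0.0512) and with limma on FPKM without a filter (-0.22, adjusted p = 0.241). FBN2 had 0 counts in every sample and SPARC 1 count in all, so neither was tested.

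All 6 integrin alpha subunits were tested, of which 2 fell and 4 were not called. ITGA1, the alpha subunit of the collagen receptor integrin alpha1 beta1, was at 30.2, 30.7 and 27.1 CPM with si-CNN3 and at 35.2, 36.9 and 37.2 CPM with si-NC. The highest si-CNN3 value lay under the lowest si-NC value and ITGA1 fell to 0.805 of control (log2 fold change -0.31 ± 0.06 SE, edgeR adjusted p = 2.41e-05). It is the member with a pair of seed sites shown above. PELO, a gene on the same strand, shares 475 exon bases with ITGA1 in GENCODE and had a log2 fold change of 0.14 (not called), and how the authors counted reads in that stretch is not given in the sources used here.

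ITGA3, which with ITGB1 binds laminins, was at 138.0, 153.8 and 134.9 CPM with si-CNN3 and at 157.4, 153.3 and 155.9 CPM with si-NC. Sample 2 of si-CNN3 lay within the si-NC range, and ITGA3 fell to 0.915 of control (log2 fold change -0.13 ± 0.03 SE, edgeR adjusted p = 0.00613). The call was lost without si-CNN3 sample 1 (-0.11, adjusted p = 0.0630), without si-CNN3 sample 3 (-0.09, adjusted p = 0.0876) and in all 3 limma analyses of FPKM. ITGA5, the alpha subunit of the fibronectin receptor, was the uncalled alpha subunit with the highest FPKM, at 152.2, 139.0 and 144.3 CPM against 142.3, 130.6 and 137.2 CPM. Its log2 fold change was 0.09 with an interval from 0.02 to 0.16 (edgeR adjusted p = 0.0725), and it passed in 6 of 18 alternatives, among them without si-CNN3 sample 2 (0.12, adjusted p = 0.0247) and without si-NC sample 1 (0.12, adjusted p = 0.0289). ITGA2, the other collagen-binding alpha subunit, had a log2 fold change of -0.10 (adjusted p = 0.112) and passed only without si-CNN3 sample 2 (-0.15, adjusted p = 0.0276). ITGAV and ITGA6, at -0.06 and 0.04, were not called.

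All 6 integrin beta subunits were tested, of which 2 rose and 4 were not called. ITGB1, the partner of ITGA1, ITGA2, ITGA3, ITGA5 and ITGA6, was at 659.1, 663.1 and 673.0 CPM with si-CNN3 and at 659.2, 663.9 and 662.7 CPM with si-NC. Its log2 fold change was 0.0067 with an interval from -0.04 to 0.06, while ITGA1 and ITGA3 were called lower. ITGB8, which pairs with ITGAV and binds latent TGF-beta, was at 43.5, 48.0 and 44.6 CPM with si-CNN3 and at 34.5, 38.0 and 36.1 CPM with si-NC. Here too the groups lay apart and ITGB8 rose 1.25-fold (log2 fold change 0.32 ± 0.05 SE, edgeR adjusted p = 2.81e-06).

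ITGB3, another partner of ITGAV, was near the lower end of what could be tested, at 2.55, 1.93 and 2.96 CPM with si-CNN3 and at 1.84, 0.924 and 2.04 CPM with si-NC. The groups overlapped. ITGB3 rose 1.57-fold by the fit (log2 fold change 0.65 ± 0.22 SE, edgeR adjusted p = 0.0409), and the call rested on single samples: it was lost without si-CNN3 sample 1 (0.63, adjusted p = 0.111), without si-CNN3 sample 3 (0.51, adjusted p = 0.233) and without si-NC sample 2 (0.34, adjusted p = 0.399). With limma on FPKM without a filter it was lost as well (0.31, adjusted p = 0.422). ITGB4, which pairs with ITGA6 in hemidesmosomes and binds laminin, was at 6.91 FPKM in si-NC cells beside 37.9 FPKM for ITGA6 by the authors' length. By the longest transcript these levels were 3.25 and 20.5 FPKM. ITGB4 had a log2 fold change of -0.06. ITGB5 and ITGB6, at -0.03 and 0.65, were not called, and the interval of ITGB6 ran from -0.15 to 1.44.

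Of the 8 tested proteases, inhibitors and crosslinking enzymes 1 rose, 3 fell and 4 were not called. MMP2, gelatinase A, which cuts type IV collagen and denatured collagen, was at 33.8, 28.2 and 31.1 CPM with si-CNN3 and at 22.9, 20.8 and 23.3 CPM with si-NC. The groups did not overlap, and MMP2 rose 1.39-fold (log2 fold change 0.48 ± 0.06 SE, edgeR adjusted p = 4.71e-08). MMP14, the membrane protease that activates pro-MMP2 together with TIMP2, was at 198 FPKM in si-NC cells beside 12.8 FPKM for MMP2 by the authors' length. By the longest transcript these levels were 67.1 and 5.93 FPKM. MMP14 had a log2 fold change of -3.5e-04 with an interval from -0.06 to 0.06.

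TIMP2 was at 283.5, 281.0 and 259.1 CPM with si-CNN3 and at 302.3, 307.1 and 298.9 CPM with si-NC. The lowest si-NC sample lay above the highest si-CNN3 sample and TIMP2 fell to 0.907 of control (log2 fold change -0.14 ± 0.03 SE, edgeR adjusted p = 2.38e-04), a call lost in all 3 limma analyses of FPKM. The ratio of TIMP2 to MMP14 in FPKM by the longest transcript was 1.12, 1.12 and 1.09 with si-CNN3 and 1.23, 1.24 and 1.21 with si-NC, lower in every si-CNN3 sample. TIMP1, the uncalled member of the group with the highest FPKM, was at 432.1, 403.5 and 406.1 CPM against 435.4, 399.9 and 411.1 CPM, overlapping throughout, and its interval ran from -0.06 to 0.05. TIMP3, the inhibitor that stays bound to the matrix, had a log2 fold change of -0.0037 and an interval from -0.06 to 0.06.

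PLAUR, the urokinase receptor, was at 73.6, 71.8 and 69.8 CPM with si-CNN3 and at 84.7, 81.2 and 83.4 CPM with si-NC. No samples overlapped and PLAUR fell to 0.864 of control (log2 fold change -0.21 ± 0.04 SE, edgeR adjusted p = 3.24e-05). PLAU, urokinase itself, had between 1 and 4 counts in a sample, and MMP7 at most 1, so neither was tested. LOX, a lysyl oxidase, was at 185.3, 172.6 and 189.8 CPM with si-CNN3 and at 198.7, 204.6 and 186.3 CPM with si-NC, with overlap. LOX fell to 0.928 of control (log2 fold change -0.11 ± 0.03 SE, edgeR adjusted p = 0.0176) and lost the call without si-CNN3 sample 2 (-0.07, adjusted p = 0.216), without si-NC sample 1 (-0.10, adjusted p = 0.0668), without si-NC sample 2 (-0.08, adjusted p = 0.184), with DESeq2 (adjusted p = 0.0743) and in all 3 limma analyses of FPKM. LOXL2, a related oxidase, had a log2 fold change of 0.04 and was not called.

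**Figure D3:**
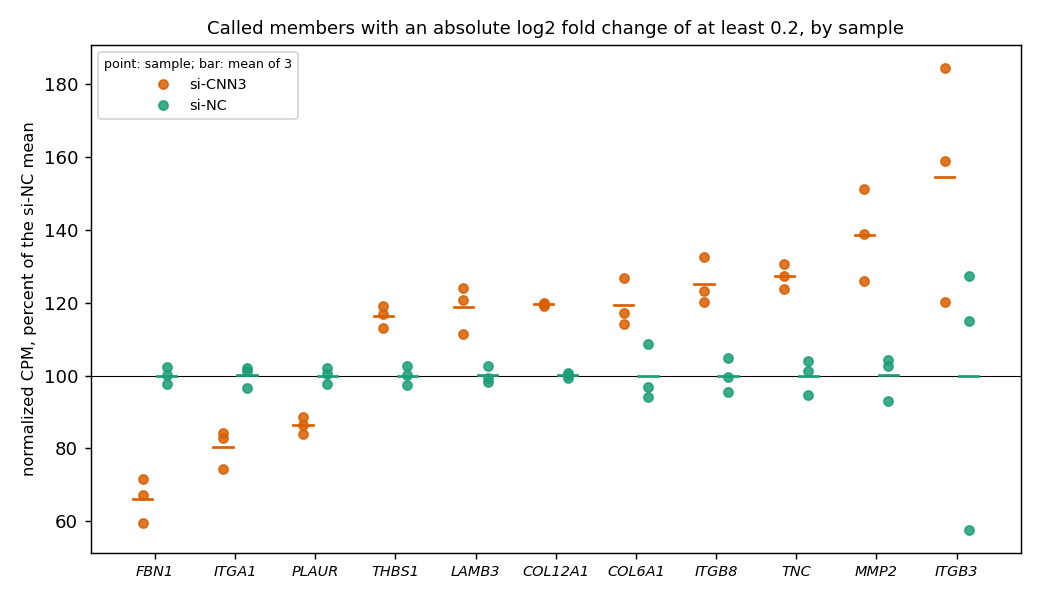
Normalized CPM of the 11 called members with an absolute log2 fold change of at least 0.2, as a percentage of the mean of the 3 si-NC samples, with a point for each sample and a bar for each group mean. The groups are apart for every gene except ITGB3, where the points of both groups interleave, and the points of COL12A1 nearly coincide within each group.

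Promoters are described for the members called in each direction and for those not called. RefSeq windows of 250 bases ahead of the start site (GRCh38.p14) were found for 37 of the 46 members, 5 of them called higher, 5 called lower and 20 not called. The rest of the 37 belong to the 7 untested members, and some called members had no window. Motifs were searched on both strands. The GC box, GGGCGG, was in 27 of the 37 windows, against 42.3% of 27305 promoters. It was in 5 of 5 windows of members called higher, in 2 of 5 of those called lower and in 16 of 20 of those not called. The TEAD motif, GGAATG, was in 6 of 37, against 11.9% of all promoters, and 2 of those 6 belonged to members that rose and 1 to a member that fell. The AP-1 motif, TGANTCA, was in 3 windows (6.6% of all promoters), among them that of PLAUR, which fell, and in none of the 5 of members called higher. The CCAAT box was in 13 windows (33.0% of all promoters) and the TATA box, TATAAA, in 5 (11.1%). The 30 bases around the TEAD motif in the called members are shown in the direction of transcription, with the motif in capitals, at chr6:75206203-75206232 (minus strand), chr15:39581021-39581050 (plus strand) and chr15:48645011-48645040 (minus strand).
COL12A1 promoter: cctcacgccgaaGGAATGctcgaagtatgc
THBS1 promoter: gaggaatccccaGGAATGcgagcgcccctt
FBN1 promoter: gggttgggcttgGGAATGgggaccgcgagg
The motif started 167 bases ahead of the RefSeq start site in COL12A1, 46 bases in THBS1 and 58 bases in FBN1. For FBN1 the RefSeq window lies inside the GENCODE gene, whose span on the minus strand begins at chr15:48645849. The same was true of other windows with a motif, among them those of PLAUR, ITGB1 and LAMA3. A match describes letters and not binding.

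The rest of the matrix was described with 148 other genes in 9 lists, of which 112 were tested and 41 called, 16 higher and 25 lower, around a median of -0.01 on the log2 scale. Over all tested genes 13.3% were called, 6.17% higher and 7.14% lower, with a larger share among deeply counted genes as given above. Among the genes of collagen folding and maturation 9 of 17 tested genes were called, 8 of them lower, with a list median of -0.09. Among the 8, PLOD2 (edgeR adjusted p = 0.0498) kept the call in 4 of 18 alternatives. PLOD1 (edgeR adjusted p = 0.0306) kept it in 10 of 18, and both were named after their values were seen. SERPINH1, the collagen chaperone HSP47, fell to a log2 fold change of -0.21 ± 0.03 SE (edgeR adjusted p = 8.03e-09), and P3H1, a prolyl 3-hydroxylase, to -0.18 ± 0.04 SE (edgeR adjusted p = 6.70e-04). P4HB, a subunit of prolyl 4-hydroxylase, and CRTAP, a partner of P3H1, fell as well, at -0.15 ± 0.03 SE (edgeR adjusted p = 8.61e-06) and -0.14 ± 0.03 SE (edgeR adjusted p = 2.41e-04), and were named after their values were seen. The 1 gene of the list that rose was P3H2 (0.24 ± 0.04 SE, edgeR adjusted p = 3.99e-06).

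Among other matrix proteases 7 of 14 tested genes were called, 6 lower and 1 higher. CTSB, the lysosomal and secreted protease cathepsin B, had a log2 fold change of -0.44 ± 0.03 SE (edgeR adjusted p = 4.30e-17), and the secreted serine protease HTRA1 one of -0.29 ± 0.04 SE (edgeR adjusted p = 3.41e-07). ADAM9 rose (0.25 ± 0.03 SE, edgeR adjusted p = 1.30e-08). Among other protease inhibitors 3 of 9 tested genes were called, and of these SERPINE2 and CST3 fell, at -0.25 and -0.10. The call of CST3 was lost in 5 of the 6 analyses that leave out a sample, with log2 fold changes then from -0.10 to -0.08 and adjusted p up to 0.196.

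Among matrix glycoproteins and proteoglycans 5 of 17 were called. CCN1, a matricellular protein that binds integrins, was at 150.9, 140.6 and 152.3 CPM with si-CNN3 and at 108.4, 98.0 and 103.1 CPM with si-NC, and rose 1.44-fold (log2 fold change 0.52 ± 0.03 SE, edgeR adjusted p = 9.42e-18). Its relative CCN2 had a log2 fold change of 0.84 ± 0.22 SE at 1 to 3 CPM and lost the call without si-CNN3 sample 3 (0.65, adjusted p = 0.0962). The matrix proteins SPOCK1 and FBLN1 fell, at -0.36 and -0.23. Of 9 other matrix receptors SDC1 and CD44 rose, at 0.28 and 0.11, and SDC3 fell, at -0.23. The CD44 call was lost without si-NC sample 2 (0.08, adjusted p = 0.102).

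Of 14 other collagen chains 4 were called, 3 higher and 1 lower. COL5A2 was at 0.85, COL14A1 at 0.71 and COL27A1 at -0.35, all of them scarce genes below 16 CPM in every sample. COL14A1 kept the call only without si-CNN3 sample 2 among the analyses that leave out a sample (0.59 to 0.75 in the others, adjusted p up to 0.208), and COL27A1 lost it without si-NC sample 1 (-0.25, adjusted p = 0.0732). Of 9 other laminins and laminin partners BCAM, a laminin alpha5 receptor, fell (-0.28 ± 0.04 SE, edgeR adjusted p = 2.24e-06), and CD151, a tetraspanin that binds laminin-binding integrins, rose, at 0.12. CD151 lost its call without si-CNN3 sample 1 (0.09, adjusted p = 0.0795). Of 6 other integrin subunits only ITGB2 was called, at -0.61, and not without si-CNN3 sample 2 (-0.48, adjusted p = 0.0521).

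In the TGF-beta list, whose ligands are held latent in the matrix and released by integrins and thrombospondin 1, 6 of 17 genes were called. The ligand genes TGFB2 and TGFB1 fell (-0.32 ± 0.04 SE, edgeR adjusted p = 8.12e-10, and -0.31 ± 0.05 SE, edgeR adjusted p = 1.76e-06), as did LTBP4, a latent TGF-beta binding protein, at -0.16. The receptor genes TGFBR3 and TGFBR2 rose, at 0.31 and 0.19, as did INHBA, an activin chain, at 0.9997 from below 2 CPM. LTBP4 and TGFBR2 were named after their values were seen. Without si-CNN3 sample 3 INHBA was not called (0.91, adjusted p = 0.0515).

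**Figure D4:**
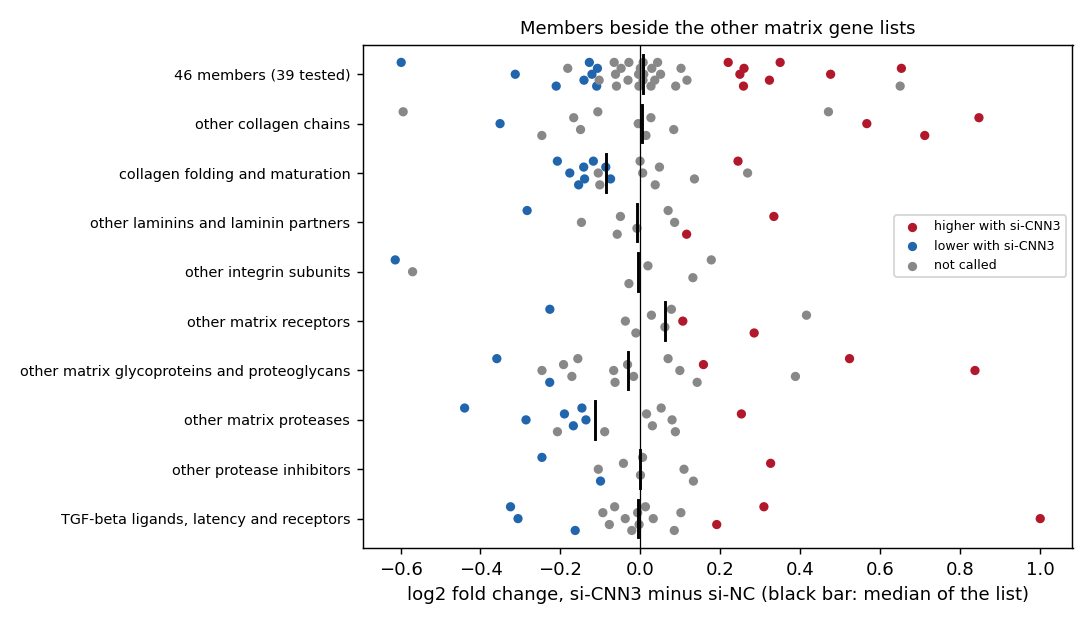
Log2 fold changes, si-CNN3 minus si-NC, of the 39 tested members and of the tested genes of the 9 other lists, with a point for each gene coloured by its call and a black bar at the median of each list. The members centre on 0.0064, while collagen folding and maturation centres on -0.09 and the other matrix proteases on -0.11.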

How the data were processed

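RNA sequencing of SiHa cells, 3 samples with si-CNN3 and 3 with si-NC, was analysed. The authors aligned reads with TopHat2 2.0.9 and Bowtie2 2.0.6 and deposited raw counts per Ensembl gene (HTSeq and DESeq 1.10.1 are also named in the submitters' processing notes). The authors deposited FPKM values too, and these equal the count over the column total and a whole-number length, within 0.01 for 30502 of 30502 genes. Build, annotation and strand setting are not given in the sources used here. Names came from a gene name table (45038 genes) and GENCODE release 29 (304 genes), and 2820 genes had none.

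Counts were compared with edgeR 4.0.16 in R 4.3.3 (TMM, filterByExpr defaults, quasi-likelihood test on condition alone). P-values were adjusted by Benjamini-Hochberg over 15860 genes at a threshold of 0.05. The SE is the size of the log2 fold change over the square root of F. Totals per sample ran from 18147028 to 24976517, and samples of a group differed by more than sampling noise. Alternatives were RLE, upper quartile and total-count scaling, DESeq2 1.42.0, no filter, at least 10 counts in every sample, replicate number as a block, each sample left out, thinning to the smallest total, a loess correction for gene length (span 0.3), and limma 3.58.1 on FPKM. In limma a pseudocount of 1 or 0.1 was added before taking log2, keeping genes with a mean FPKM of 1 or more, or every gene for a pseudocount of 1. On that scale the change of scarce genes comes out too small. The longest-transcript length was chosen after seeing the data. Scripts were tested on simulated data.

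The members, lists and tests were chosen with earlier results of these data known. Values in every sample are given for called members with an absolute log2 fold change of at least 0.2, for smaller called ones in complexes described, and for the uncalled member with the highest mean FPKM in each role. Of the other lists, the 2 largest called increases and decreases of each are named, apart from genes not reported here. Cell assays were not analysed here.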

Additional observations from a re-analysis of the deposited data

How the results depend on the processing

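Of the 39 tested members, 16 were called, and leaving out each replicate gave 13 to 17. The count was 6 with limma on log2(FPKM + 1) and no filter, where 5 were higher and 1 lower; with a mean FPKM of at least 1 limma called 4 lower, with either pseudocount. The other matrix genes called went from 41 to 27, 14 and 27 with limma on log2(FPKM + 1) with a mean of at least 1, without the filter, and on log2(FPKM + 0.1), and the cause was not tested. Over all genes, 2111 were called, against 1246 with DESeq2 and 1363, 585 and 1353 with limma. Scaling by total counts alone put 1294 of 2157 calls on the higher side, against 978 of 2111. DESeq2 gave no adjusted p for COL1A1, COL17A1, FBN1, ITGB3 and ITGB6.

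To compare replicate numbers, the group mean of each gene was subtracted from its log2 normalized CPM. The remaining deviations, not the levels themselves, were correlated between samples over the tested genes. Deviations of same-numbered samples of the groups correlated at 0.0105, 0.0329 and 0.0275, and those of differently numbered ones at -0.0268 to -8.01e-04. The deviations of each sample correlated best with those of its own number, and all of these values were small. Whether the numbers pair the samples was not tested. With the replicate number as a block, 18 members (9 higher), 45 other matrix genes and 2727 genes in all were called.

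The sign turned only for genes not called in either analysis. MMP14 was at 0.0054 with upper quartile factors, 0.017 with total counts, 2.1e-04 with at least 10 counts in every sample, 0.0071 when thinned, 0.0034 with the length correction and 0.016 in each limma analysis. TIMP1 was at 0.0010 and 0.013 with upper quartile and total-count scaling and at 0.012 in each limma analysis, and TIMP3 at 0.0019 and 0.014, at 0.0070 with the length correction and at 0.013 in each limma analysis. LAMA3 was at -0.017 when thinned. COL4A6, not a member, was at 1.8e-04, 0.012, 0.013 and 0.0037 with upper quartile factors, total counts, thinning and the length correction, at 0.012, 0.012 and 0.016 in the limma analyses, and between -0.076 and 0.059 with each replicate left out. With each replicate left out, the log2 fold change ranged from -0.092 to 0.048 for COL5A1, from -0.085 to 0.21 for COL17A1, from -0.019 to 0.028 for LAMA3, from -0.0064 to 0.033 for FN1, from -0.0027 to 0.013 for ITGB1, from -0.062 to 0.010 for ITGB5, from -0.017 to 0.027 for MMP14, from -0.037 to 0.030 for TIMP1 and from -0.030 to 0.041 for TIMP3.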

Other observations

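Chains of the same collagen type differed widely in level, in both groups. These genes were picked after their values were seen and are given as values. While COL4A1 had 0 counts, COL4A5, a type IV chain of other basement membranes, was at 245.3, 244.5 and 239.5 CPM with si-CNN3 and at 239.1, 244.9 and 232.0 CPM with si-NC, and was not called (log2 fold change 0.026, edgeR adjusted p = 0.621). COL4A6, COL4A3 and COL4A4 followed at 10.1 to 12.1 CPM, 4.82 to 7.05 CPM and 2.39 to 3.66 CPM, none of them called. COL5A1 stood at 62.0 FPKM in si-NC cells by the authors' length, beside 0.526 FPKM for COL5A2, which rose 1.80-fold. By the longest transcript these levels were 14.2 and 0.284 FPKM. COL6A3, the large chain of type VI collagen, reached at most 0.110 CPM in a sample, beside a mean of 133 CPM for COL6A1 in si-NC cells. COL1A2, the partner of COL1A1, reached at most 0.260 CPM.

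Among receptor and ligand pairs, the urokinase receptor gene PLAUR was at 95.3 FPKM in si-NC cells by the authors' length. PLAU had 14 counts in all 6 samples together. The fibronectin receptor genes ITGA5 and ITGB1 stood at 101 and 549 FPKM by that length, beside 2.32 FPKM for FN1. By the longest transcript PLAUR was at 51.2 FPKM, and ITGA5, ITGB1 and FN1 were at 30.5, 174 and 1.15 FPKM.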
